A study of Mus musculus and Homo sapiens with 18 samples.

Results

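The IL-6 cytokine family was followed through mouse bladder carcinoma libraries by 10 genes of 55858 in the deposited tables. The genes were the ligands Il6, Il11, Lif and Clcf1, the receptor chains Il6ra, Il6st, Lifr and Osmr, the transcription factor Stat3 and its feedback inhibitor Socs3. They were found by symbol in the tumour table and by the same gene identifiers in the cell line table, and all 10 were matched in both. The study sequenced poly(A) RNA from 18 bladder carcinoma libraries, of which the 12 mouse libraries in 4 groups of 3 were used. The first pair of groups was control tumours from genetically engineered mice (GEMM in the labels) and tumours of the same model labelled as treated with chemotherapy, cisplatin plus gemcitabine, which the series design calls relapsed. The second pair was CUUC-G, a mouse line, in which a guide RNA targeted Igfbp5 (sgIgfbp5) or was a control guide (sgScr). The labels call the sgIgfbp5 libraries knockdowns, whereas the design text describes knockouts. The labels name no allele, strain, sex or age of the mice, and do not say whether CUUC-G is 1 clone or whether replicates were separate tumours or cultures. The p-values below therefore measure the spread between these libraries, which may be technical.

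Cytokines of this family signal through a shared receptor chain, gp130, encoded by Il6st. IL-6 and IL-11 first bind their own alpha chains, and LIF, oncostatin M and the cardiotrophin-like cytokine encoded by Clcf1 recruit gp130 together with LIFR or OSMR. The receptors activate JAK kinases, which phosphorylate STAT3, and STAT3 induces SOCS3, which binds gp130 and dampens the signal. In bladder carcinoma, IL-6 and LIF are best known as inflammatory cytokines that tumour and stromal cells release and respond to.

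Total estimated counts ranged from 18964787 to 21756923 per tumour library and from 19210830 to 20729980 in CUUC-G. Igfbp5, the targeted gene, was low throughout. In CUUC-G it had 1.04, 2.56 and 2.31 CPM (counts scaled to library size) with sgScr and 0.606, 0.393 and 0.470 CPM with sgIgfbp5. It was called lower, with no overlap (edgeR adjusted p = 0.00125). At relapse Igfbp5 was called higher, also with no overlap, from 27 to 149 counts. The log2 fold change was 2.44 ± 0.44 (SE, n = 3, edgeR adjusted p = 1.97e-05). The 8 leukocyte markers summed to 1.57 to 2.42 CPM in control tumours, 4.84 to 6.03 in relapsed, 4.67 to 5.37 in sgScr and 1.77 to 1.84 in sgIgfbp5 libraries. Ptprc, Cd3e, Adgre1 and Itgam were among those with 0 counts in the relapsed libraries. The 2 leukocyte markers that could be tested moved as the family did: Csf1r by 2.18 on the log2 scale at relapse and -4.60 with sgIgfbp5, and Cd68 by 1.22 and -0.97, all 4 called. Csf1r rests on 24 counts in control, 109 in relapsed, 100 in sgScr and 4 in sgIgfbp5 libraries. Of the untested markers, Ptprc, Adgre1 and Itgam had 2, 3 and 2 counts in control tumours. The urothelial markers Upk3a and Krt5 had 0 counts in all 4 groups. The 10 urothelial markers summed to 6.57 to 6.89 CPM in control, 333 to 350 in relapsed, 344 to 385 in sgScr and 88.4 to 106 in sgIgfbp5 libraries. In the relapsed libraries nearly all of it was Krt8 (142 CPM), Upk1b (99.1) and Krt18 (85.9). At relapse 4 of the list were called higher, 2 not called, Upk1a and Trp63, and 4 not tested. With sgIgfbp5 4 were called lower, 1 not called and 4 not tested, and Upk1a was called higher, by 1.67 on the log2 scale. The 5 endothelial markers summed to 1.69 to 2.62, 152 to 163, 149 to 157 and 8.46 to 8.83 CPM in that order. Kdr made up most of each sum, at means of 1.44, 156, 153 and 7.79 CPM, while Cdh5 and Emcn were at or near 0. Kdr was called higher at relapse and lower with sgIgfbp5. Tek was called lower at relapse, from 45 to 5 counts. In CUUC-G Tek had 0 counts with sgScr and 34 with sgIgfbp5 and was not tested. Pecam1 had 5, 35, 21 and 22 counts in the 4 groups and was tested in neither comparison. The 6 fibroblast markers summed to 1.64e+04 to 1.69e+04, 7.99e+03 to 8.15e+03, 8.45e+03 to 8.94e+03 and 3.50e+03 to 3.95e+03 CPM, nearly all of it Col1a1 and Col1a2. Of these 6 markers, 3 were called lower at relapse, Col1a1, Col1a2 and Thy1, and 3 higher, Dcn, Lum and Pdgfra, the last from 11.2 to 108 CPM. With sgIgfbp5 the 5 that were tested were all called lower. The Y-linked Ddx3y averaged 74.2 CPM in control tumours and had 0 counts in the relapsed libraries and in both CUUC-G groups. Over 15366 genes, the relapsed and sgScr groups differed by a median of 0.14 on the log2 scale, with 1.77% of genes more than 2-fold apart. The 5 other pairs of groups differed by 0.53 to 0.67, with 26.2% to 33.7% of genes more than 2-fold apart. The relapsed libraries were therefore close to the sgScr line, and an opposite direction in the 2 comparisons is not independent evidence for a gene. The labels speak of harvested tumours but also enter GEMM as a cell line, and whether the relapsed libraries came from tissue or from cultured cells cannot be told apart here. They are called relapsed tumours below after the series design. The markers, Ddx3y and the nearness of the groups moved with the comparisons below, and their part in the results was not tested.

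All 10 genes were called higher in relapsed than in control tumours, led by Lif, Il6 and Socs3. Called means an adjusted p under 0.05 from edgeR's quasi-likelihood test over all 14373 genes tested. Of those genes 36.6% were called higher, 36.9% lower and 73.5% in either direction. A call alone therefore says little here, and the sizes are read against the median of all genes, a log2 fold change of 0.00, and their median size of 0.52. The 10 genes had a median log2 fold change of 1.08. The CPM of relapsed and control libraries did not overlap for 9 of the 10 genes, against 75.3% of all genes tested; Osmr was the exception. In CUUC-G, 8 of the 10 were called lower with sgIgfbp5 than with sgScr and 2, Il11 and Il6st, were not called. Over the 14553 genes tested there, 34.3% were called lower, 36.5% higher and 70.8% in either direction, and the CPM of the groups did not overlap for 73.9%, compared with 8 of the 10 family genes. The median log2 fold change was -0.91 for the family and 0.06 for all genes tested, whose median size was 0.64. In bulk RNA, fewer cells of a type and less RNA per cell cannot be told apart.

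**Figure D1:**
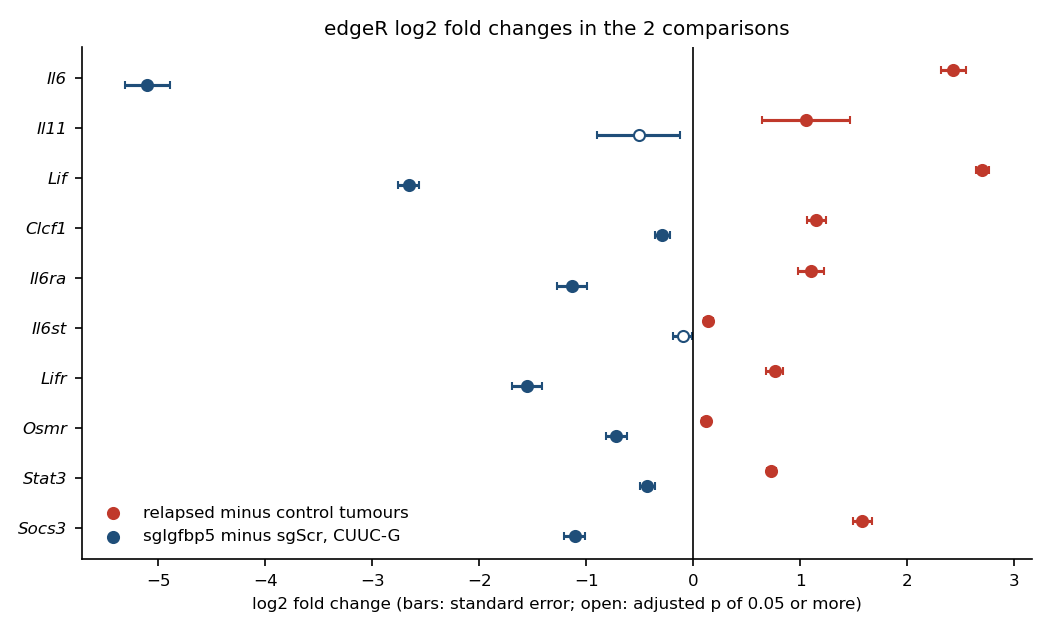
Log2 fold changes of the 10 IL-6 family genes (x axis; points are edgeR estimates, bars their standard errors), relapsed minus control tumours in red and sgIgfbp5 minus sgScr in blue. All red points lie right of 0, from 0.12 for Osmr to 2.70 for Lif, and the open blue points of Il11 and Il6st were not called.

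Il6 (ENSMUSG00000025746.12; GRCm38 chromosome 5, 30013114 to 30019981, plus strand) encodes interleukin 6. It had 3.69, 4.52 and 3.47 CPM in the control tumours and 21.3, 20.7 and 20.8 CPM in the relapsed ones. The 3 relapsed values lay close together, above every control value. The log2 fold change was 2.43 ± 0.12 (SE, n = 3; edgeR adjusted p = 4.09e-16), a 5.39-fold rise from 236 to 1269 summed counts. In CUUC-G, Il6 had 17.8, 17.5 and 18.8 CPM with sgScr and 0.606, 0.295 and 0.658 CPM with sgIgfbp5. It fell by 5.10 ± 0.21 on the log2 scale (SE, n = 3; edgeR adjusted p = 2.75e-09), the largest difference of the family, and by 4.18 by limma on log2(TPM + 1). TPM is abundance scaled for transcript length and depth. The sgIgfbp5 level rests on 32 counts over 3 libraries, against 1039 with sgScr.

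Lif (ENSMUSG00000034394.15; GRCm38 chromosome 11, 4257557 to 4272514, plus strand) encodes leukaemia inhibitory factor. Its control tumours had 14.7, 14.3 and 14.5 CPM and its relapsed tumours 94.1, 97.7 and 91.1 CPM. Each group was tight and the gap between them was 6.50-fold, a log2 fold change of 2.70 ± 0.06 (SE, n = 3; edgeR adjusted p = 1.16e-23). With sgScr, CUUC-G had 106, 100 and 99.1 CPM, and with sgIgfbp5 13.9, 17.5 and 16.8 CPM. Lif thus fell by 2.66 ± 0.10 on the log2 scale in the line (SE, n = 3; edgeR adjusted p = 1.20e-09), with no overlap between the groups. On log2(TPM + 1) the relapse difference by limma was 1.81 and the CUUC-G difference -1.76. Lif-203, a 390-base transcript without a defined coding sequence, held 3.38% of Lif counts and 54.0% of Lif TPM in the control tumours.

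The promoters of these ligands and of Socs3, the feedback gene of the pathway, are shown because these genes had the largest rises at relapse. RefSeq windows on GRCm38.p6, from 250 bases before to 50 after a start, were found for 9 of the 10 genes, 11 windows in all, and were searched on both strands. The motifs were a STAT site (TTCNNNGAA, in 8.3% of all 32851 windows of that length), an AP-1 site (TGACTCA or TGAGTCA, which are each other's reverse complement, in 5.2%) and the NF-kB consensus (in 4.51%). No 2 matches overlapped. The 250 bases before the start are given 5′ to 3′ on the gene's strand, with matches in capitals: chr5:30012864-30013113 (plus) for Il6, chr11:4257318-4257567 (plus) for Lif and chr11:117969367-117969616 (minus) for Socs3.
Il6: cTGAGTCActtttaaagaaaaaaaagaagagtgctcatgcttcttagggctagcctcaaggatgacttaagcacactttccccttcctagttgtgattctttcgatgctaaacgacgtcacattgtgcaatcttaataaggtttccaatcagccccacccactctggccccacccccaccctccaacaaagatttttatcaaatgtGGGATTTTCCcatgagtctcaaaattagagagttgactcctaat
Lif: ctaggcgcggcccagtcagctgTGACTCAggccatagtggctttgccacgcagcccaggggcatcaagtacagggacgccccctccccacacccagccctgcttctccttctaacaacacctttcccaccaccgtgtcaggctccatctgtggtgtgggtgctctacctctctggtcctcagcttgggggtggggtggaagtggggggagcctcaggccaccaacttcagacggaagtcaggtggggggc
Socs3: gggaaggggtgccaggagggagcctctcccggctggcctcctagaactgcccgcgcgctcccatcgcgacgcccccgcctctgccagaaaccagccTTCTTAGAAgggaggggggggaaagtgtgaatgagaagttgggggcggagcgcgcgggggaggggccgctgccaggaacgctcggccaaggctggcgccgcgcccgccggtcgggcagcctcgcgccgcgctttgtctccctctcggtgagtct
The Il6 window held an AP-1 match at -249 to -243 and an NF-kB match, GGGATTTTCC, at -44 to -35 from the start. Lif held an AP-1 match at -228 to -222, and Socs3 a STAT match, TTCTTAGAA, at -154 to -146. In the other windows of the family there was 1 match, AP-1 at -98 to -92 of the second Il11 start. A match describes the letters in the window and is not a measured binding site. The Lif window lies at the start of the transcript Lif-202 (4257557). The start of Lif-201 (4267095), which held 56.1% of Lif counts in control and 63.6% in relapsed tumours, was not searched. The Socs3 window lies upstream of the start of Socs3-201 (117969186) and does not reach it, and Socs3-201 held 99.8% of Socs3 counts in both groups.

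Clcf1 (ENSMUSG00000040663.10; GRCm38 chromosome 19, 4214238 to 4223490, plus strand) encodes a ligand that signals through the CNTF receptor. Its level was 25.8, 19.5 and 20.4 CPM in control and 49.2, 51.0 and 46.3 CPM in relapsed tumours, a rise of 1.15 ± 0.09 on the log2 scale (SE, n = 3; edgeR adjusted p = 9.31e-12). The relapsed libraries were about 2.22-fold above the controls. In CUUC-G it had 49.8, 50.6 and 51.4 CPM with sgScr and 42.8, 41.0 and 40.6 CPM with sgIgfbp5. The groups did not overlap and the log2 fold change was -0.29 ± 0.07 (SE, n = 3; edgeR adjusted p = 0.00450), smaller than the median size of 0.64 over all genes. Scaled by library size only, it was -0.18 with an adjusted p of 0.0453, while that scaling moved the median of all genes from 0.06 to 0.17. Exons of Clcf1 overlap AC109138.7 on the same strand, so the split of reads between them is uncertain.

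Il11 (ENSMUSG00000004371.16; GRCm38 chromosome 7, 4772373 to 4782859, minus strand), a ligand with roles in fibrosis and bone, was near the lower end of what could be counted. Control tumours had 0.410, 0.684 and 1.31 CPM and relapsed tumours 1.85, 1.49 and 1.62 CPM, which is 48 against 100 counts. All relapsed values lay above the controls, and the log2 fold change was 1.05 ± 0.41 (SE, n = 3; edgeR adjusted p = 0.0230). The call was lost without control replicate 1 (0.72, edgeR adjusted p = 0.126), control replicate 2 (0.95, 0.0650) or relapsed replicate 1 (0.96, 0.0868), and without control replicate 3 the value was 1.59. On log2(TPM + 1) it was 0.34, with a limma adjusted p of 0.256. In CUUC-G, Il11 had 1.04, 1.76 and 2.53 CPM with sgScr and 1.21, 1.72 and 0.799 CPM with sgIgfbp5. These groups overlapped, and the log2 difference of -0.51 ± 0.39 did not pass the test (SE, n = 3; edgeR adjusted p = 0.260).

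**Figure D2:**
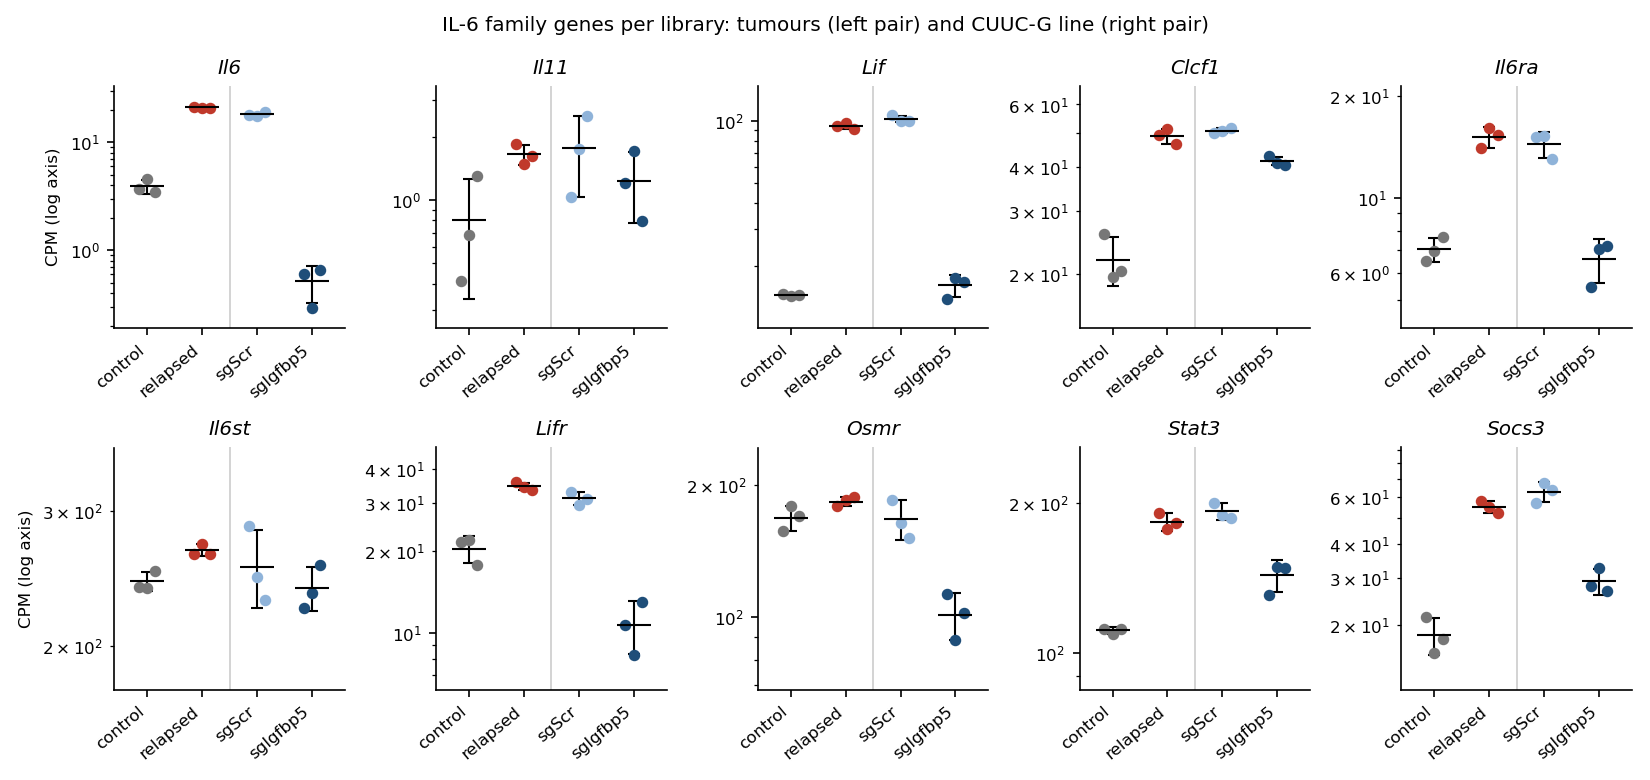
CPM of each IL-6 family gene in the 12 libraries (log y axis, a range of its own per gene; points are libraries, lines means, bars SD of 3 libraries), control and relapsed tumours left of the grey line, sgScr and sgIgfbp5 right of it. Il6 and Lif show the widest gaps, whereas the Osmr values of control and relapsed tumours and the Il6st values of both CUUC-G groups overlap.

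Among the receptor chains, Il6ra and Lifr had larger log2 fold changes at relapse than Il6st and Osmr; the differences between the genes were not tested. Il6ra (ENSMUSG00000027947.12; GRCm38 chromosome 3, 89864059 to 89913196, minus strand), which gives a cell its response to IL-6, had 6.52, 6.99 and 7.64 CPM in control and 14.0, 16.1 and 15.3 CPM in relapsed tumours. All relapsed values were above the controls, and the log2 fold change was 1.10 ± 0.12 (SE, n = 3; edgeR adjusted p = 4.07e-09). In CUUC-G it had 15.1, 15.2 and 13.0 CPM with sgScr and 5.45, 7.08 and 7.23 CPM with sgIgfbp5, and fell by 1.13 ± 0.14 without overlap (SE, n = 3; edgeR adjusted p = 2.77e-05). Exons of Il6ra overlap the gene Gm42809 on the opposite strand. The library kit was stranded, but whether the counting used strand is not given in the sources used here.

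Lifr (ENSMUSG00000054263.13; GRCm38 chromosome 15, 7090614 to 7197489, plus strand) pairs with gp130 to receive LIF. It had 21.6, 21.9 and 17.7 CPM in control and 35.7, 34.4 and 33.4 CPM in relapsed tumours. The relapsed libraries were all higher, and the log2 fold change was 0.76 ± 0.08 (SE, n = 3; edgeR adjusted p = 4.51e-09). On log2(TPM + 1) the value was 0.46 and the limma adjusted p 0.0542. CUUC-G had 32.9, 29.5 and 31.1 CPM with sgScr and 10.7, 8.31 and 13.0 CPM with sgIgfbp5, without overlap. There Lifr fell by 1.55 ± 0.14 on the log2 scale (SE, n = 3; edgeR adjusted p = 2.33e-06), the largest difference among the receptor chains in the line.

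The shared chain gp130 moved little. Il6st (ENSMUSG00000021756.13; GRCm38 chromosome 13, 112464070 to 112510086, plus strand) had 239, 238 and 251 CPM in control and 264, 272 and 264 CPM in relapsed tumours. This rise of 0.14 ± 0.04 was a small but separated one (SE, n = 3; edgeR adjusted p = 0.00107), and on log2(TPM + 1) it was 0.09 with a limma adjusted p of 0.185. In CUUC-G the values were 287, 246 and 230 CPM with sgScr and 224, 235 and 255 CPM with sgIgfbp5, which overlapped. The log2 difference was -0.10 ± 0.09 (SE, n = 3; edgeR adjusted p = 0.352), and 0.01 when scaled by library size only.

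Osmr (ENSMUSG00000022146.13; GRCm38 chromosome 15, 6813577 to 6874969, minus strand) is the partner of gp130 for oncostatin M. It had 157, 179 and 170 CPM in control and 179, 185 and 187 CPM in relapsed tumours. The groups overlapped and the log2 fold change was 0.12 ± 0.04 (SE, n = 3; edgeR adjusted p = 0.0126). Without control replicate 1 it was 0.07, with an edgeR adjusted p of 0.146, and on log2(TPM + 1) the limma adjusted p was 0.193. With sgIgfbp5 the difference was clearer: 113, 88.7 and 102 CPM against 185, 164 and 151 CPM with sgScr. There Osmr fell by 0.72 ± 0.10 (SE, n = 3; edgeR adjusted p = 8.12e-05) without overlap, and on log2(TPM + 1) without a TPM filter the limma adjusted p was 0.0559.

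Downstream of the receptors, Stat3 (ENSMUSG00000004040.17; GRCm38 chromosome 11, 100885098 to 100939540, minus strand), the main transcription factor of the pathway, had 112, 109 and 112 CPM in control and 191, 177 and 182 CPM in relapsed tumours. Its rise was 0.73 ± 0.04 on the log2 scale (SE, n = 3; edgeR adjusted p = 3.35e-15). In CUUC-G it had 200, 189 and 186 CPM with sgScr and 131, 149 and 148 CPM with sgIgfbp5. It was lower in each sgIgfbp5 library, by 0.43 ± 0.07 (SE, n = 3; edgeR adjusted p = 0.000343). The CUUC-G difference was -0.27 on log2(TPM + 1), and without a TPM filter its limma adjusted p was 0.0719. Exons of Stat3 overlap Stat5a on the opposite strand.

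Socs3 (ENSMUSG00000053113.4; GRCm38 chromosome 11, 117966079 to 117970047, minus strand), the inhibitor that STAT3 induces, had 21.5, 15.8 and 17.8 CPM in control and 57.9, 55.2 and 52.1 CPM in relapsed tumours. The relapsed libraries were 2.98-fold higher, a log2 fold change of 1.58 ± 0.09 (SE, n = 3; edgeR adjusted p = 1.60e-14). In CUUC-G, Socs3 had 56.9, 67.4 and 63.9 CPM with sgScr and 27.9, 32.7 and 26.7 CPM with sgIgfbp5. It fell by 1.11 ± 0.10 (SE, n = 3; edgeR adjusted p = 1.80e-06), again without overlap. The change of Socs3 was larger than that of Stat3 in both comparisons; the difference between the genes was not tested.

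Levels can be compared between genes only per length, so the order of the family is given in TPM, as means with SD over 3 libraries. In control tumours Il6st, Osmr and Stat3 were highest, with 56.9 ± 3.11 for Il6st, 53.4 ± 4.11 for Osmr and 45.6 ± 9.34 for Stat3. Clcf1 followed at 22.3 ± 3.95, Lif at 13.1 ± 2.79, Socs3 at 13.0 ± 1.50 and Il6 at 8.86 ± 1.15. Lifr at 5.09 ± 0.666, Il6ra at 2.11 ± 0.383 and Il11 at 0.937 ± 0.522 were lowest. Neighbours whose libraries overlapped were Il6st and Osmr, Osmr and Stat3, and Lif and Socs3. In relapsed tumours the TPM of Lif, Clcf1 and Il6, though not of Il11, stood nearer to those of Il6st and Osmr. Lif reached 48.1 ± 6.44, Clcf1 44.6 ± 5.87 and Il6 37.0 ± 1.01, against 60.4 ± 1.06 for Il6st and 57.3 ± 1.02 for Osmr. Stat3 had 64.5 ± 5.92, Socs3 35.1 ± 1.04, Lifr 7.48 ± 1.91, Il6ra 4.35 ± 0.577 and Il11 1.39 ± 0.149. Overlapping neighbours in that order were Stat3 and Il6st, Lif and Clcf1, and Il6 and Socs3. These levels include transcripts without a defined coding sequence. For Lif, the 390-base one held 7.27 TPM in control and 12.7 in relapsed tumours. The 2 coding transcripts of Lif had 3.48 and 2.36 TPM in control, and 23.1 and 12.2 in relapsed tumours. The place of Lif above Il6 in the tumours therefore rests on that short transcript. At relapse Clcf1 held 7.72 TPM in such a transcript and 5.82 in a retained-intron one, against 29.5 in its main coding transcript.

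CUUC-G values were given by gene, so the part of such transcripts is not known there. The sgScr line had nearly the same order as the relapsed tumours. Stat3 had 60.6 ± 4.31 TPM, Il6st 55.9 ± 10.6, Lif 49.5 ± 7.94, Osmr 48.7 ± 9.27 and Clcf1 41.3 ± 1.75, and each of these overlapped its neighbour. Socs3 at 35.3 ± 1.99 and Il6 at 33.6 ± 2.39 also overlapped, and Lifr at 7.90 ± 2.52, Il6ra at 3.68 ± 0.426 and Il11 at 1.49 ± 0.559 closed the list. With sgIgfbp5, Il6 was last, at 0.949 ± 0.466 TPM, overlapping Il11 at 1.07 ± 0.393, which in turn overlapped Il6ra at 1.71 ± 0.351. Lifr had 3.37 ± 0.970 TPM. Stat3 at 50.1 ± 5.17 and Il6st at 48.2 ± 6.24 led and overlapped, as did Osmr at 33.2 ± 5.88 and Clcf1 at 31.2 ± 3.81, and Socs3 at 17.4 ± 1.38 and Lif at 14.3 ± 5.09.

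The tumour table was given by transcript, which allowed shares of each gene to be described in control and relapsed tumours; 3 libraries against 3 cannot go below an exact p of 0.1, and no test was made. These shares are estimates that divide reads among overlapping models. Il6-201, which holds the longest Il6 coding sequence (633 bases), made up 28.8%, 4.40% and 39.4% of Il6 TPM in control and 82.8%, 61.4% and 62.7% in relapsed tumours. Il6-204, which starts downstream at 30013321 and codes for 582 bases, went the other way, from 36.9%, 92.8% and 48.9% to 7.47%, 31.5% and 24.3%. Neither set overlapped, but the control values rest on 65 and 135 counts and spread widely. By TPM, the rise of Il6 was mostly Il6-201, at 2.02 ± 1.38 in control and 25.5 ± 4.93 in relapsed tumours (SD, n = 3), with 5.42 ± 3.28 and 7.73 ± 4.40 for Il6-204.

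Lif-201, which starts at 4267095 and codes for 474 bases, and Lif-202, which starts at 4257557 and codes for 609 bases, were both higher at relapse. Lif-201 had 3.48 ± 0.368 TPM in control and 23.1 ± 2.94 in relapsed tumours, and Lif-202 2.36 ± 0.429 and 12.2 ± 3.83 (SD, n = 3). Lif-201 held 24.2%, 30.1% and 26.6% of Lif TPM in control and 43.3%, 39.7% and 64.9% in relapsed tumours, without overlap, while the share of Lif-203 was lower at relapse, at 31.3%, 30.5% and 15.2% against 64.0%, 43.8% and 54.2%. By counts, where Lif-203 held little, the shares of the 2 coding transcripts overlapped between the groups, with means of 56.1% and 63.6% for Lif-201 and of 40.5% and 35.5% for Lif-202.

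The shares of the 2 main gp130 transcripts did not overlap between the groups. Il6st-201 went from 55.3%, 55.9% and 60.9% of Il6st TPM in control to 65.1%, 65.2% and 70.4% in relapsed tumours, and Il6st-203 from 44.4%, 44.0% and 39.0% to 34.6%, 34.4% and 28.7%. Both have the same coding sequence of 2751 bases. They differ in their starts, at 112475008 and 112464070, and their ends, at 112506860 and 112510086. By counts the share of Il6st-201 was 44.3% ± 3.14 in control and 54.7% ± 3.62 in relapsed tumours, again without overlap (SD, n = 3).

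Lifr-207, which codes for 2157 bases against 3276 for Lifr-203, went from 39.4%, 43.2% and 30.5% of Lifr TPM to 13.6%, 22.6% and 18.2%. Its level was 1.95 ± 0.555 and 1.30 ± 0.112 TPM, while Lifr-203 had 2.61 ± 0.298 in control and 4.53 ± 0.311 in relapsed tumours (SD, n = 3). Part of the Lifr TPM in relapsed tumours was Lifr-205, a 299-base transcript without a defined coding sequence, at 2.95 TPM from 2 counts in relapsed replicate 1 and 0 in the other tumour libraries. By counts Lifr-203, the longer coding form, went from 984 to 1850 and Lifr-207 from 174 to 125. For Osmr, the main coding transcript Osmr-201 had 47.6 ± 3.17 and 47.2 ± 1.27 TPM, and its share of TPM went from 90.3%, 88.5% and 88.8% to 80.4%, 84.5% and 82.0%. By counts its share overlapped between the groups, with means of 97% in control and 96.3% in relapsed tumours. The retained-intron transcript Osmr-203 had 2.64 ± 0.456 TPM in control and 8.22 ± 1.31 in relapsed tumours, which is 0.586% and 1.81% of Osmr counts.

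**Figure D3:**
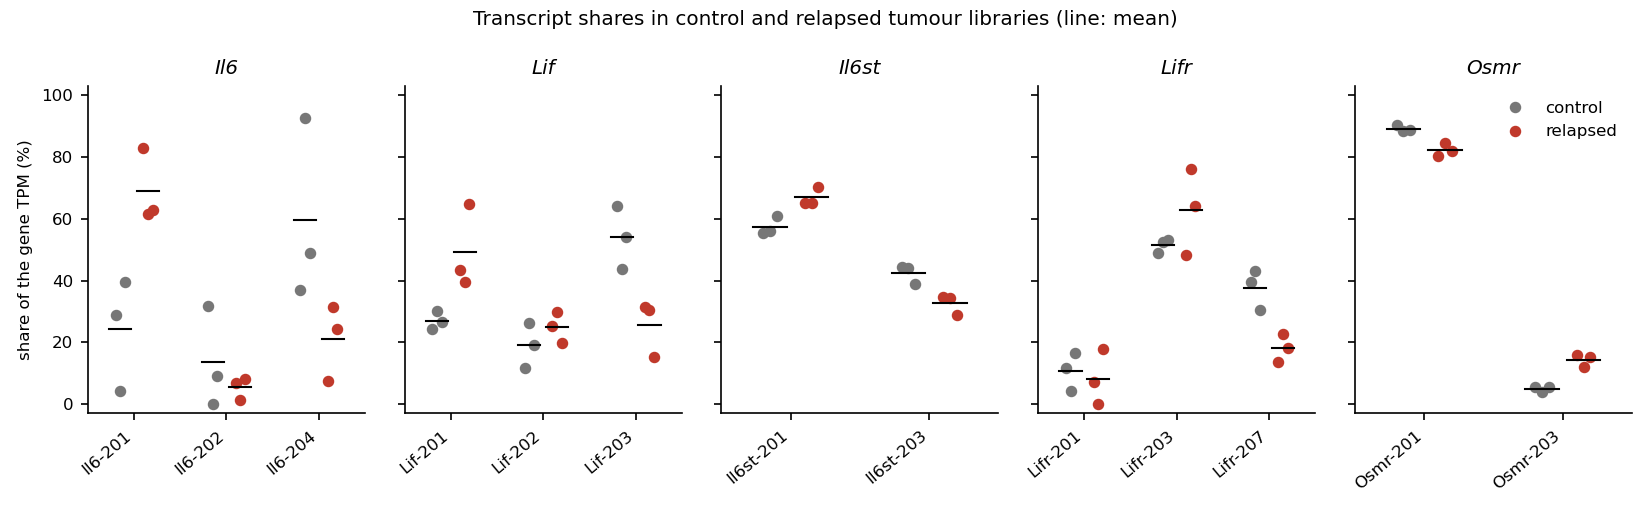
Share of each gene's TPM (y axis, percent) held by its main transcripts in the 3 control (grey) and 3 relapsed (red) tumour libraries, with black lines at the means. Il6-201, Lif-201, Il6st-201 and Osmr-203 are higher and Il6-204, Lif-203, Il6st-203, Lifr-207 and Osmr-201 lower in all relapsed libraries than in any control library, and the Il6 control values spread from 4.40% to 92.8%.

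The other genes of the pathway did not move as 1 block. Of 69 listed genes, 61 were tested at relapse and 24 were called higher, 20 lower and 17 not called. In CUUC-G 59 were tested and 21 were called higher, 23 lower and 15 not called. These shares are close to those of all genes in either direction. Over all genes tested, 36.6% were called higher and 36.9% lower at relapse, and 36.5% and 34.3% in CUUC-G. The counts of each list below are to be read beside these percentages. Of the 12 other ligands and receptors, 6 were not tested at relapse and 7 in CUUC-G because their counts were too low. Oncostatin M itself, Osm, had 1 count in all control tumours together and 0 in the other 3 groups, and Il31 had 0 counts throughout; both were picked out after their values were seen. At relapse 2 of the list were called lower, 0 higher and 4 not called, with a median of -0.59. Il11ra1, the alpha chain for IL-11, fell by 1.14 ± 0.08 and Cntfr, the CNTF receptor, by 4.17 ± 0.54 (131 and 7 counts; 1.71 by limma on log2(TPM + 1)), whereas Il27ra at -0.87 ± 0.45 was not called. In CUUC-G 2 were lower, 1 higher and 2 not called, with a median of 0.09. The cardiotrophin gene Ctf1 fell by 1.42 ± 0.23 and Il11ra1 by 0.28 ± 0.10, and Cntf at 0.44 ± 0.28 was not called. On log2(TPM + 1) Il11ra1 turned to 0.17 in CUUC-G and was not called.

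Among JAK kinases and other STATs, 3 were called higher, 3 lower and 3 not called at relapse (median 0.03), and in CUUC-G 3 higher, 4 lower and 2 not called (median 0.02). Stat2 rose by 1.29 ± 0.09 at relapse and fell by 0.94 ± 0.09 with sgIgfbp5. Of the kinases that gp130 binds, Jak1 rose by 0.29 ± 0.04 at relapse and fell by 1.09 ± 0.07 with sgIgfbp5, and Jak2 fell by 0.96 ± 0.04 at relapse and was not called with sgIgfbp5, at 0.18 ± 0.11. Tyk2 went opposite to Jak1, at -0.49 ± 0.10 and 0.53 ± 0.09, called both times. Stat5b rose by 1.49 ± 0.09 with sgIgfbp5.

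Of the 15 inhibitors other than Socs3, 3 were called higher, 8 lower and 4 not called at relapse, with a median of -0.19, against 36.6% higher and 36.9% lower over all genes tested. Socs2, which restrains growth hormone signalling, fell by 1.82 ± 0.06, from 89.5 to 25.5 CPM, opposite to Socs3. Socs4 fell by 0.53 ± 0.06 and the phosphatase gene Ptpn2 by 0.56 ± 0.05, whereas Socs5 rose by 0.88 ± 0.05. In CUUC-G 6 were higher, 3 lower and 5 not called, with a median of 0.26. Socs2 rose by 1.99 ± 0.09 there, Socs7 by 1.57 ± 0.09 and Pias2 by 0.53 ± 0.08, and Socs1 fell by 1.50 ± 0.18.

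Of 20 genes known as STAT3 targets, 11 were called higher, 5 lower and 3 not called at relapse. Over all genes tested 36.6% were called higher and 36.9% lower. The median of the list was 0.53, against 0.00 for all genes tested. Saa3, an acute phase gene, went from 1.14 ± 0.641 to 128 ± 1.95 CPM at relapse and from 228 ± 49.3 with sgScr to 0.806 ± 0.338 CPM with sgIgfbp5 (SD, n = 3). Hp, which encodes haptoglobin, had 2 counts in the control and 2260 in the relapsed tumours, a ratio of 1.14e+03 with a 95% interval of 314 to 9.38e+03 for counting error only. It fell by 6.20 ± 0.17 with sgIgfbp5, and by 4.98 on log2(TPM + 1). Lcn2, another acute phase gene of the list, was not called at relapse (0.53 ± 0.34) and rose by 0.87 ± 0.29 with sgIgfbp5, and Lrg1 was too low to test. The adhesion molecule Icam1 rose by 4.02 ± 0.13 (3.14 on log2(TPM + 1)) and the NF-kB cofactor Bcl3 by 2.61 ± 0.08, while Myc, also on this list, fell by 0.90 ± 0.04. In CUUC-G 7 were higher, 10 lower and 2 not called, against 36.5% higher and 34.3% lower over all genes tested. The median of the list there was -0.85, against 0.06 for all genes tested. Cebpd, which encodes a transcription factor of the acute phase, fell by 3.08 ± 0.10 and the survivin gene Birc5 by 2.64 ± 0.09, and Myc rose by 1.27 ± 0.07.

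Regulators of Il6 itself were led in size of change by Zc3h12a and Nfkbiz in both comparisons, while most of the list changed little. Of 8, 4 were called higher, 2 lower and 2 not called at relapse (median 0.11), and 3 higher, 2 lower and 3 not called in CUUC-G (median 0.23). Zc3h12a encodes Regnase-1, which degrades Il6 mRNA. It had 4.97, 3.52 and 3.92 CPM in control and 42.9, 43.9 and 44.1 CPM in relapsed tumours, a log2 fold change of 3.39 ± 0.10, and in CUUC-G 45.6, 53.4 and 49.8 CPM with sgScr against 3.48, 3.54 and 3.81 CPM with sgIgfbp5, a log2 fold change of -3.78 ± 0.11. Nfkbiz, whose product is needed for Il6 induction by NF-kB, moved likewise, by 2.63 ± 0.06 and -2.96 ± 0.12. Arid5a, whose product stabilises Il6 mRNA, fell by 1.19 ± 0.08 at relapse and rose by 1.54 ± 0.08 with sgIgfbp5. The NF-kB subunit gene Rela was not called at relapse (-0.07 ± 0.04) and rose by 0.34 ± 0.07 with sgIgfbp5, and Rc3h2 fell by 0.33 ± 0.06 at relapse.

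The genes of receptor shedding, which release soluble IL-6 receptor, changed by 1.00 or less on the log2 scale. At relapse 3 of 4 were called higher and 1 not called (median 0.30). Adam17, the main sheddase, rose by 0.50 ± 0.05 and its escort Rhbdf2 by 1.00 ± 0.06, while Rhbdf1 at -0.02 ± 0.07 was not called. Adam10 rose by 0.10 ± 0.04 but was -0.01 on log2(TPM + 1), where it was not called. With sgIgfbp5, Rhbdf2 fell by 0.92 ± 0.07 and Adam17 by 0.29 ± 0.08, Rhbdf1 rose by 0.59 ± 0.08, and Adam10 at 0.11 ± 0.09 was not called (median -0.09).

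**Figure D4:**
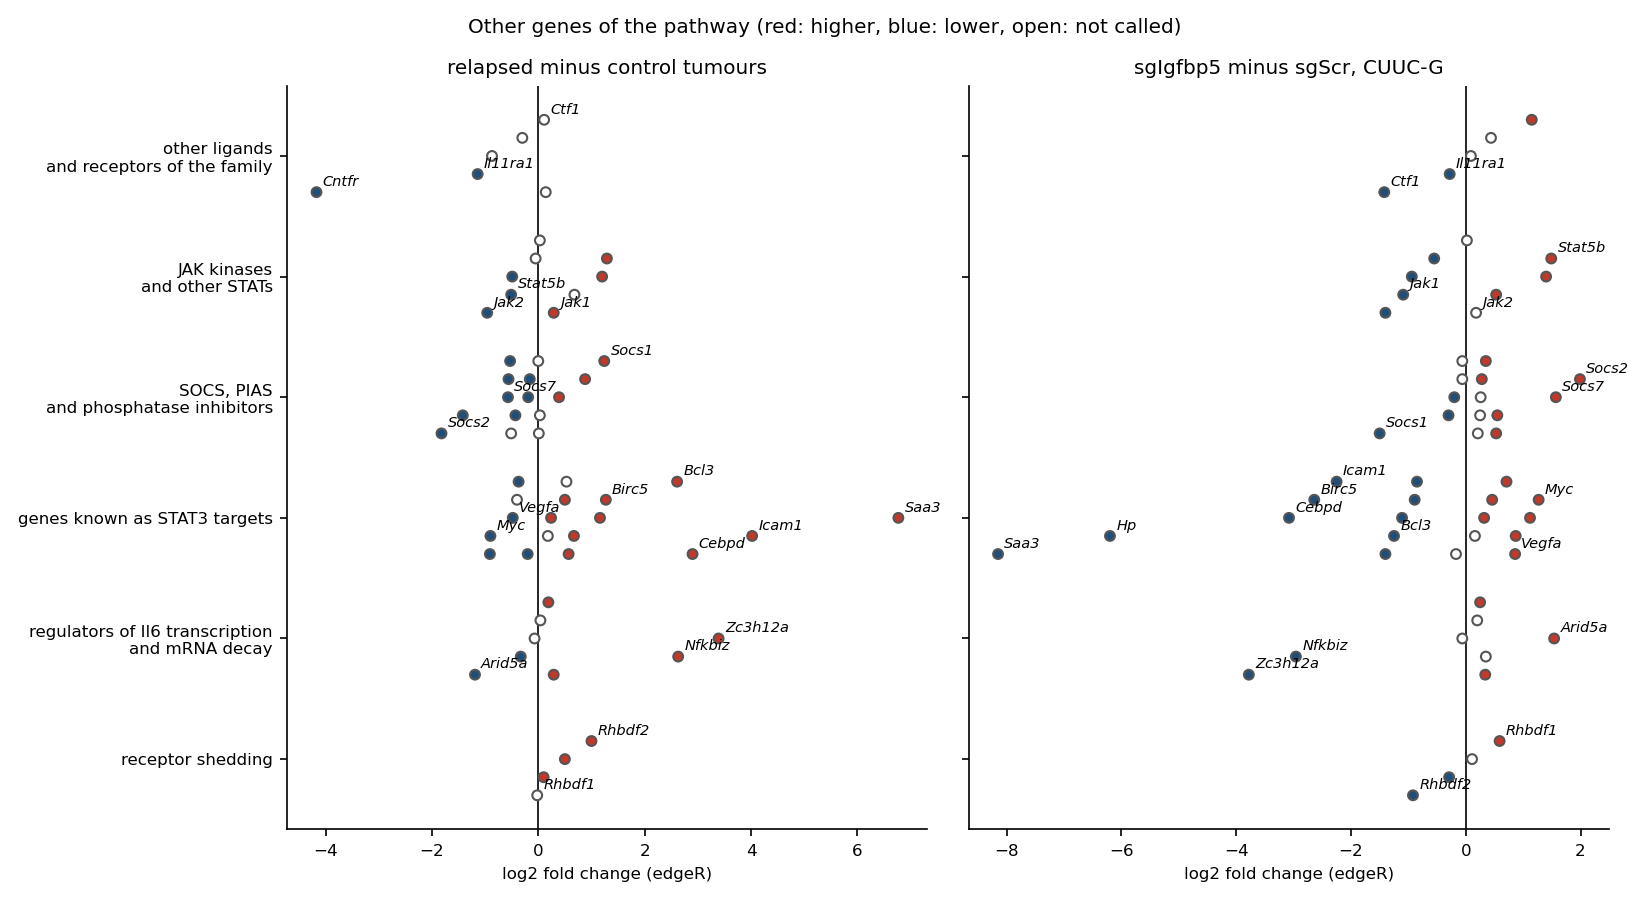
edgeR log2 fold changes (x axis) of the other pathway genes by list, relapsed minus control tumours on the left and sgIgfbp5 minus sgScr on the right; red was called higher, blue lower and open not called. Hp is left out on the left because control tumours held 2 counts, and Saa3, Zc3h12a and Nfkbiz lie far right at relapse and far left with sgIgfbp5.

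Genes with a pattern like that of Il6 and Lif were ranked by the mean absolute difference of centred log2 CPM over the 12 mouse libraries, among 11527 named protein-coding genes. For Il6 the nearest were Kcnab1, a potassium channel subunit, at 0.155, Klra4, one of a family of near-identical receptors whose counts are uncertain, at 0.177, Slco3a1 at 0.193 and Layn at 0.210. For Lif the nearest included Gprc5b at 0.054, Egln3, an oxygen-sensing prolyl hydroxylase, at 0.084, and Hmga2, a chromatin protein, at 0.109. On that scale Gprc5b differed by 2.69 at relapse and by -2.55 with sgIgfbp5, against 2.69 and -2.66 for Lif. Libraries of the same table share their scaling, and the nearness of the relapsed and sgScr libraries enters this measure as well.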

How the data were processed

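Per the labels' protocols, libraries were made from poly(A) RNA with a stranded mRNA kit. The submitters' processing notes list Salmon, with no version given, and name GRCm38 (mm10) and GRCh38 (hg38) without a role. The authors deposited estimated counts, with TPM in separate files, for 147828 transcripts of the tumours and by gene for CUUC-G. The deposited counts of the tumours were summed here to 55858 genes, and all counts were rounded. Columns marked mI were read as sgIgfbp5 because the labels mark the targeted MGHU3 libraries with hI; MGHU3 was not analysed here. Columns matched to no sample numbered 0.

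Each table was fitted separately with edgeR 4.0.16 in R 4.3.3 (quasi-likelihood test, TMM scaling, filterByExpr, robust, two-sided), with Benjamini-Hochberg adjustment over all genes tested and a threshold of 0.05. SE is the size of the log2 fold change over the square root of F. CPM used TMM-scaled library sizes. The step was run on simulated counts with 50 genes changed at each of 1.5, 2, 4 and 8-fold. Of each 50, it recovered 44, 43, 50 and 49 for the tumours and 35, 43, 50 and 50 for CUUC-G. Of the unchanged genes it called 9 of 13907 and 11 of 14103. Far fewer genes changed there than were called in the data, so scaling under broad change was not checked. Alternatives were RLE or library-size scaling, DESeq2 1.42.0, other filters, limma 3.58.1 on log2(TPM + 1) or log2(TPM + 0.1) with or without a mean TPM of 1, a replicate block and leaving out each library; shares of transcripts by counts were added after the data were seen. Positions came from GENCODE M21 on GRCm38, by identifiers without version, and promoters from RefSeq. The members and lists were chosen with earlier results of these data known. Up to 4 genes per list and comparison were named, by smallest p, and a gene named for 1 comparison may be given in the other. Some genes that this rule or the likeness ranking picks are not reported here. The interval of Hp is exact binomial and covers counting error alone.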

Additional observations from a re-analysis of the deposited data

How the results depend on the processing

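The number of family genes called higher at relapse was 10. It was 6 with limma on log2(TPM + 1), on log2(TPM + 0.1) and without a TPM filter. Il11, Osmr, Lifr and Il6st were lost there, and the cause was not tested. Over all genes, edgeR called 5260 of 14373 higher at relapse. The 3 limma settings, in that order, called 3529 of 13333, 3519 of 13333 and 3854 of 25513 higher. RLE or library-size scaling, DESeq2 and the other count filters left 10 family genes called higher. With 1 library left out it was 8 to 10 at relapse and 8 each time in CUUC-G, and for the other pathway genes 41 to 48 and 40 to 47 called. Replicate numbers gave no pairing: deviations of same-numbered libraries correlated at 0.01 in each relapse pair and at 0.04, 0.09 and -0.08 in CUUC-G. With the replicate block, 10 and 8 family genes and 45 and 44 pathway genes were called. The sign turned for Adam10 at relapse (-0.01 in the 3 limma settings) and for Il11ra1 in CUUC-G (0.17, 0.18 and 0.17), neither called there. By limma the median of all genes at relapse was -0.12 on log2(TPM + 1), -0.13 on log2(TPM + 0.1) and -0.00 without a TPM filter. The counts of Il11 in every group and of Il6 with sgIgfbp5 limit their precision.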
